A study of Mus musculus with 12 samples.

Results

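In the mouse B lymphoma line CH12F3-2A, which can switch its antibody class to IgA in culture, 10 genes of the ATF4 stress response were followed across a Nop16 guide and a class switch stimulus. They were Atf4, Atf5, Atf3 and Ddit3 (transcription regulators), Trib3 and Ppp1r15a (feedback inhibitors), and Ddit4, Chac1, Asns and Cth (effectors). They were taken by name from the 56941 gene records of the deposited table. Of the 10 genes, 9 passed a filter on low counts that kept 16794 genes, and Asns did not. All cells had been transfected with pX459, a plasmid that carries Cas9, a guide RNA and puromycin resistance, and selected in puromycin for 72 h. The guide was sgNop16, against the nucleolar protein gene Nop16, or sgCtr, a non-targeting control. Cells of each guide were left unstimulated (sgCtr_no and sgNop16_no) or given the CIT cocktail for 24 h (sgCtr_CIT and sgNop16_CIT). The cocktail is listed as anti-CD40L at 1 μg/ml in the sample records and as CD40L in the design text, with TGF-β (human, recombinant) at 1 ng/ml and IL-4 at 20 ng/ml. Each of the 4 groups had 3 libraries described as biological replicates, 12 in all. The sources used here do not say whether the selected cells were pools or clones.

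ATF4 is a bZIP transcription factor whose protein is made when a kinase phosphorylates the translation initiation factor eIF2α, as happens under amino acid shortage, unfolded protein stress in the endoplasmic reticulum, double-stranded RNA or haem shortage. It binds DNA together with C/EBP family partners and switches on genes for amino acid uptake, amino acid synthesis and tRNA charging, along with the regulators CHOP (Ddit3), Atf3 and Trib3. ATF4 is controlled largely at translation, so the mRNA level of Atf4 is not a measure of its protein. In B cells, activation raises the demand for protein and amino acid synthesis, which uses the same genes.

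The DNA word TGATGNAA is the C/EBP-ATF response element, to which ATF4 and a C/EBP partner bind. RefSeq promoter windows (build GRCm38.p6, 250 bases before to 50 after the annotated start) were found for 9 of the 10 genes, all but Cth, and were searched for it on both strands. The 4 windows below are shown because 3 of the genes carry the element and each was called lower with CIT in at least 1 guide, while Ddit4 rose with CIT and its window holds no match. Among the genes not shown, Atf4 and Ppp1r15a also fell with CIT in both guides and have no match, and Atf5 rose and has none. The windows were thus picked by response, and a link between the element and the response was not tested. Capitals mark the element, which in the 3 windows is read on the opposite strand.
Trib3 (chr2:152344011-152344310, minus strand): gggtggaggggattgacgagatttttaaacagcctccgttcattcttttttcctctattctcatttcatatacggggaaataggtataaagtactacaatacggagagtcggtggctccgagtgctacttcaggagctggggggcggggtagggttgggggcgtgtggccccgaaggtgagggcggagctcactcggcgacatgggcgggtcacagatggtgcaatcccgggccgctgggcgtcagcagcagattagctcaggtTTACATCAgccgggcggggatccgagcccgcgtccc
Chac1 (chr2:119350992-119351291, plus strand): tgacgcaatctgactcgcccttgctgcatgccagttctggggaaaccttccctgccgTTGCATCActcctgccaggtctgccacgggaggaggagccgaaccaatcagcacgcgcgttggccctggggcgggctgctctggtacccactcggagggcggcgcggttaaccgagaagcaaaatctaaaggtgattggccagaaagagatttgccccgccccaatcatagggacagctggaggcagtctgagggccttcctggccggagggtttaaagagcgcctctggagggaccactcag
Atf3 (chr1:191183284-191183583, minus strand): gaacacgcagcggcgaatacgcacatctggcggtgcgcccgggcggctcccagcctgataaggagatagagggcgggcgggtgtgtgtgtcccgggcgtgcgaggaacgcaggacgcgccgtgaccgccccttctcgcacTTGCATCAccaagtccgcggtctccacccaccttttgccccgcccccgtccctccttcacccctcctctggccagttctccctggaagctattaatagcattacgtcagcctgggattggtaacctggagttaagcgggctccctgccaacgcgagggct
Ddit4 (chr10:59951721-59952020, minus strand): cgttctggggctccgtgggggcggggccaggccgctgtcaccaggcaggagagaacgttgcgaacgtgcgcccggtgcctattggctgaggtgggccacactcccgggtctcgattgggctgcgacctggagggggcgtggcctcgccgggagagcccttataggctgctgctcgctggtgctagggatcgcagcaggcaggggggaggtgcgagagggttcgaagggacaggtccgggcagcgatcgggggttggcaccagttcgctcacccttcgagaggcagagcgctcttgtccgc

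The element began 193 bases upstream of the start in Chac1, 110 bases upstream in Atf3 and 15 bases downstream in Trib3. The window of Asns also held it, 23 bases upstream, so 4 of the 9 genes had a match. Of all 32851 RefSeq windows of this length, 3.97% did. The cAMP response element TGACGTCA, searched in the same way, was in the window of Ppp1r15a alone among the 9 genes, 12 bases upstream, and in 1.79% of all windows. No window of the 9 genes held both words. A match describes letters in a window and shows no binding in these cells.

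Library totals ran from 38866418 to 48615177 counts. Nop16, the targeted gene, averaged 106 ± 2.35 CPM (counts scaled to a common library total with TMM factors; SD, n = 3) in sgCtr_no and 85.7 ± 3.10 in sgNop16_no, a log2 difference of -0.31 ± 0.04 (SE; adjusted p = 0.000563, edgeR quasi-likelihood test). With CIT it averaged 77.1 ± 3.46 CPM in sgCtr_CIT and 65.7 ± 0.930 in sgNop16_CIT, a log2 difference of -0.23 ± 0.04 (adjusted p = 0.00455). The groups did not overlap in either state, but most Nop16 mRNA remained, and RNA does not show whether the protein was lost. All 9 B cell markers were detected, summing to between 4079 and 4484 CPM per library. T cell markers summed to between 199 and 231 CPM, nearly all of it Lck, at a mean of 198 CPM. Macrophage markers summed to between 7.70 and 8.90 CPM in sgCtr_no and 11.9 and 15.1 in sgCtr_CIT, and to between 9.44 and 10.9 in sgNop16_no and 15.7 and 18.2 in sgNop16_CIT, with Lyz2, Fcgr1, Mertk and Cd14 at 0 in all libraries. Erythroid and fibroblast markers summed to at most 8.12 and 5.66 CPM. The part of any such cells in the results below was not tested. In these bulk libraries, fewer cells of a kind and less RNA per cell cannot be told apart.

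Per kilobase of annotated exons, Atf4 was the highest of the 10 genes in every group, at 121 ± 1.38 CPM per kb in sgCtr_no and 82.5 ± 0.562 in sgCtr_CIT. Atf5 and Ddit4 followed at 23.4 ± 0.866 and 17.2 ± 1.11 CPM per kb in sgCtr_no, and at 26.5 ± 1.34 and 27.0 ± 0.618 in sgCtr_CIT, where their spreads overlap. Ppp1r15a and Cth lay at 11.3 ± 1.07 and 9.89 ± 0.796 CPM per kb, and Chac1, Ddit3 and Trib3 between 4.47 and 6.24, in sgCtr_no. Atf3 was the lowest of the tested genes at 0.598 ± 0.0308 CPM per kb, with 53 to 57 counts in a library of sgCtr_no and 7 to 29 in sgCtr_CIT. Asns, the enzyme that makes asparagine from aspartate, was listed at 0 in all 12 libraries. Whether the gene was silent or its estimate failed was not tested. If the estimate worked, a count of 0 allows 3 undetected fragments, each taken as about 4 of the table's counts, or a level of up to 0.247 to 0.307 CPM depending on the library, for counting error only. No fold change can be given for Asns.

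**Figure D1:**
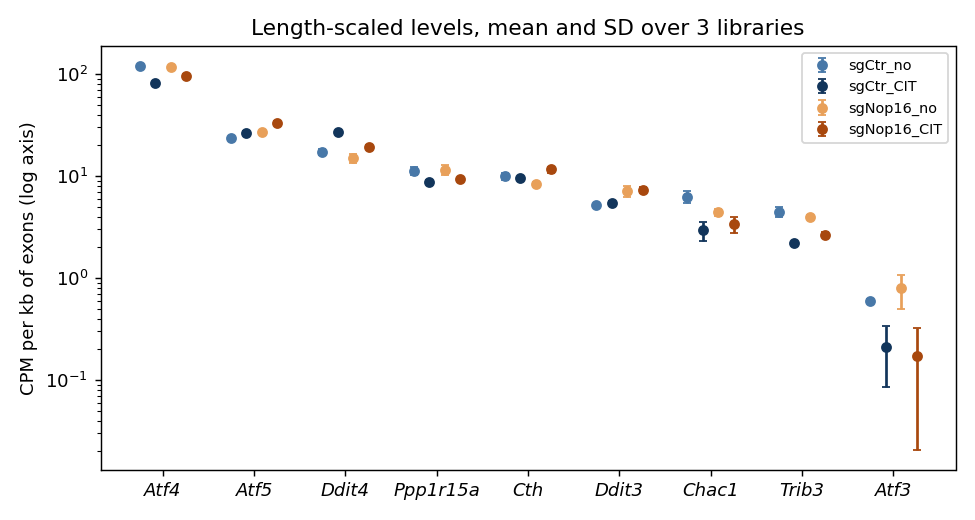
Mean level per kilobase of exons (CPM per kb, log axis) with SD over 3 libraries for the 9 tested genes in the 4 groups. Atf4 lies above all others, from 82.5 to 121 CPM per kb, and Atf3 lies below 1 in every group.

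CIT lowered Atf4, Trib3 and Ppp1r15a and raised Ddit4 and Atf5 with either guide. In the control guide 4 of the 9 tested genes fell (Atf4, Trib3, Chac1 and Ppp1r15a) and 2 rose (Ddit4 and Atf5), at an adjusted p below 0.05 over all genes tested. CIT changed much of the transcriptome: 20.9% of all tested genes were called lower and 20.4% higher in the control guide, so the count of 2 that rose is near the background. In the Nop16 guide 4 fell (Atf4, Trib3, Ppp1r15a and Atf3) and 3 rose (Ddit4, Atf5 and Cth), against 18.2% of all tested genes called lower and 18.9% higher. The libraries with and without CIT did not overlap for 7 of the 9 genes in the control guide and for 8 of the 9 in the Nop16 guide, against 50.6% and 47% of all tested genes. The median log2 difference over the 9 genes was -0.37 in the control guide and -0.29 in the Nop16 guide, where the medians over all tested genes were 0.02 and 0.01.

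The Nop16 guide changed fewer of them. Without CIT, 2 of the 9 genes were higher in sgNop16_no than in sgCtr_no (Ddit3 and Atf5) and none was lower, against 1.79% and 1.53% of all tested genes. At an unadjusted p below 0.05, Chac1, Cth and Ddit4 were lower, and by DESeq2 1 gene, Cth, was called lower. With CIT, 4 were higher in sgNop16_CIT (Atf4, Atf5, Ddit3 and Cth) and 1, Ddit4, was lower, against 3.39% and 2.77%. The libraries of the guides did not overlap for 4 of the 9 genes without CIT and for 7 with CIT, against 18.8% and 24.1% of all tested genes. The CIT response itself differed between the guides, by the interaction term, for 2 of the 9 genes, Atf4 and Cth, both with a more positive response in the Nop16 guide. None was called more negative by edgeR or DESeq2, and 1, Ddit4, was at an unadjusted p below 0.05. Over all tested genes 0.881% had a more positive and 1.25% a more negative response. The shares called were larger in the fit of the 10571 genes with at least 5 CPM in 3 libraries. The comparisons with CIT and those between the guides share libraries, so they are given side by side and are not independent.

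**Figure D2:**
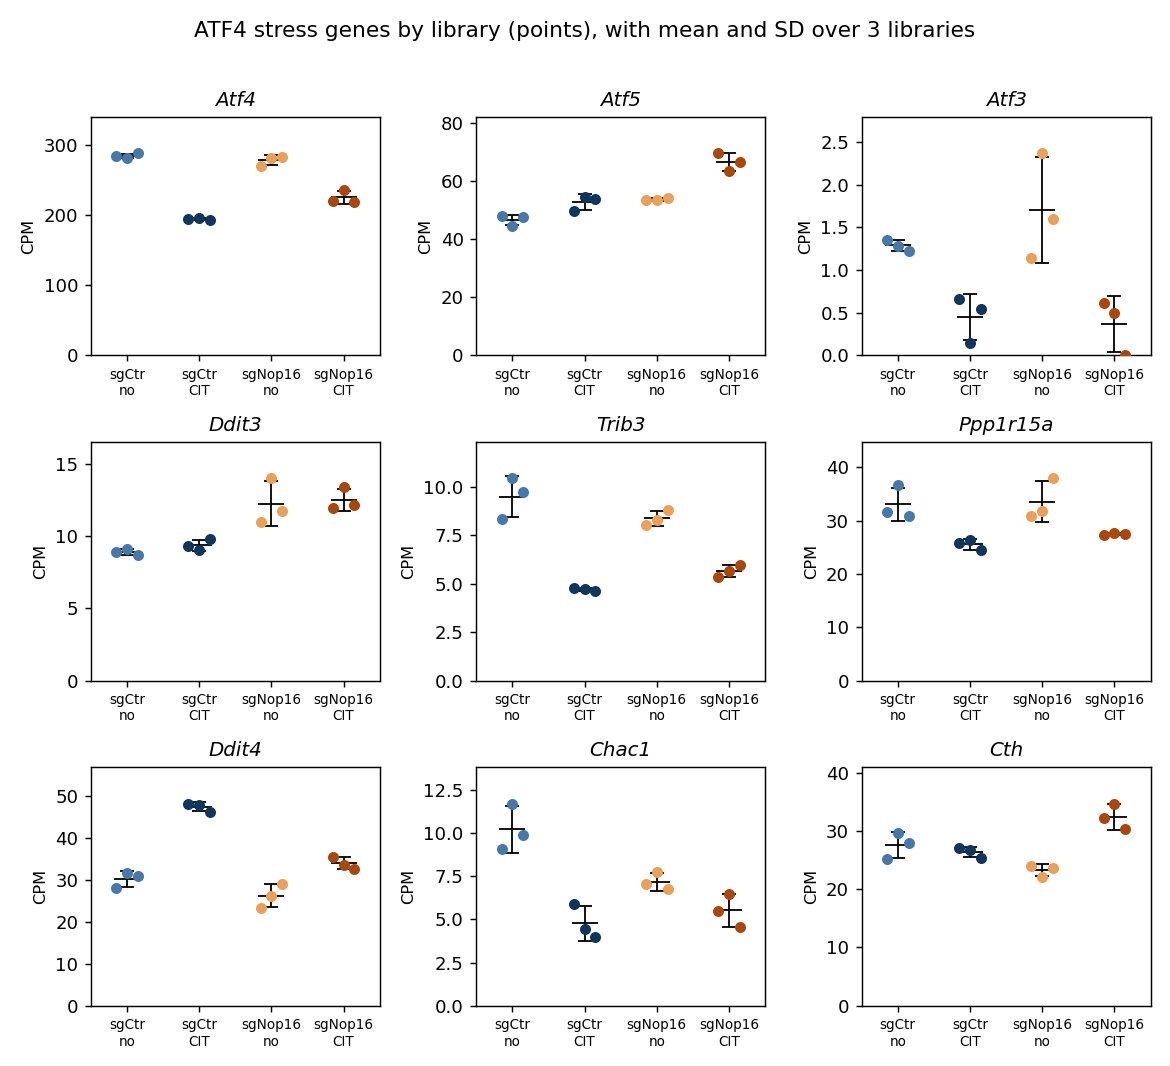
Level of each of the 9 tested genes (CPM, linear axes from 0) in every library, with the mean and SD of the 3 libraries of each group. Atf4 drops from 282 to 288 CPM to 193 to 196 CPM with CIT in the control guide and stays higher, at 219 to 236 CPM, in the Nop16 guide.

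Atf4, the activator at the head of the response, was at 284, 282 and 288 CPM in the 3 libraries of sgCtr_no and at 195, 196 and 193 CPM in those of sgCtr_CIT. It was at 270, 282 and 283 CPM in sgNop16_no and at 221, 236 and 219 CPM in sgNop16_CIT. Unstimulated libraries of both guides lay together, and both stimulated groups lay below them and apart from each other, sgCtr_CIT lowest. CIT lowered Atf4 by a log2 difference of -0.55 ± 0.03 in the control guide (adjusted p = 6.76e-10) and -0.31 ± 0.03 in the Nop16 guide (adjusted p = 1.03e-06). The difference between these responses was 0.24 ± 0.05 (adjusted p = 0.0102), called in all 12 fits that left out 1 library (adjusted p up to 0.0458). Atf4 did not differ beyond its spread between the guides without CIT (-0.03 ± 0.03, adjusted p = 0.757), and with CIT it was 0.21 ± 0.03 higher in the Nop16 guide (adjusted p = 0.000828).

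Atf5, a bZIP factor related to Atf4 that is also translated under eIF2α phosphorylation, moved the other way with CIT. Its levels were 47.8, 44.7 and 47.5 CPM in sgCtr_no, 49.7, 54.6 and 53.9 in sgCtr_CIT, 53.4, 53.6 and 54.1 in sgNop16_no, and 69.6, 63.6 and 66.7 in sgNop16_CIT. The 4 groups formed 3 steps, with sgCtr_CIT and sgNop16_no overlapping in the middle. CIT raised it by 0.18 ± 0.05 in the control guide (adjusted p = 0.0115) and by 0.31 ± 0.05 in the Nop16 guide (adjusted p = 0.000134), and these responses were not shown to differ (adjusted p = 0.468). The Nop16 guide was higher by 0.34 ± 0.05 with CIT (adjusted p = 0.000853) and by 0.20 ± 0.05 without (adjusted p = 0.0449). The guide difference without CIT was lost when any 1 of the 6 libraries was left out (adjusted p up to 0.165). The rise with CIT in the control guide was lost (adjusted p up to 0.0634) without sgCtr_no library 2 and without library 2 or 3 of sgCtr_CIT. In the GRCm38 annotation, 82 of the 1993 exon bases of Atf5 (4.11%) lie opposite exons of Il4i1 and Nup62. Il4i1, an amino acid oxidase, rose by 3.03 ± 0.12 with CIT in the control guide, and the sources used here give no strand setting for the counting, so the share of its reads in Atf5 was not tested.

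Ddit3, which encodes CHOP, a factor that drives cell death genes under lasting stress, differed between the guides and not detectably with CIT. It was at 8.90, 9.09 and 8.71 CPM in sgCtr_no and 9.31, 9.01 and 9.78 in sgCtr_CIT. It was at 10.99, 13.985 and 11.8 CPM in sgNop16_no and 11.9, 13.4 and 12.2 in sgNop16_CIT. All 6 libraries of the Nop16 guide lay above all 6 of the control guide. The guide difference was 0.46 ± 0.11 without CIT (adjusted p = 0.0298) and 0.42 ± 0.11 with it (adjusted p = 0.0332). Neither call was firm: without CIT it stayed only when sgNop16_no library 1 was left out and was lost without any other of the 6 libraries (adjusted p up to 0.147), and with CIT it was lost without any 1 of the 6 (up to 0.138). The CIT response was 0.07 ± 0.11 in the control guide (adjusted p = 0.66) and 0.03 ± 0.11 in the Nop16 guide (adjusted p = 0.874). Of its 1713 exon bases, 68 (3.97%) lie opposite exons of Mars, the methionyl-tRNA synthetase, which was 0.13 ± 0.04 higher in the Nop16 guide with CIT (adjusted p = 0.0332) and did not differ beyond its spread without CIT (-0.05 ± 0.03). The share of Mars reads in Ddit3 was not tested. The symbol Ddit3 had 2 gene records, and the record not used held 0 counts. In the GRCm38 annotation a gene of that symbol also overlaps the exons of Ddit3 on the same strand.

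Atf3, a bZIP factor that ATF4 induces and that mostly represses transcription, was scarce, with 0 to 99 counts in a library. It was at 1.36, 1.29 and 1.22 CPM in sgCtr_no, 0.663, 0.148 and 0.549 in sgCtr_CIT, 1.14, 2.37 and 1.60 in sgNop16_no, and 0.613, 0.494 and 0 in sgNop16_CIT. All 6 stimulated libraries lay below all 6 unstimulated ones. The fall of Atf3 passed the test in the Nop16 guide (-2.19 ± 0.73, adjusted p = 0.0257) and not in the control guide (-1.51 ± 0.71, adjusted p = 0.107), and the difference between these responses was not called (-0.69 ± 1.00, adjusted p = 0.85). At such counts, about 4 of which were taken as 1 fragment, the fitted fold depends on the prior count. Without sgNop16_no library 2 the call in the Nop16 guide was lost (adjusted p = 0.09). Dropping the filter on low counts had the same outcome (adjusted p = 0.0616), while 3 other settings called the fall in the control guide (adjusted p = 0.0325 with the compared groups alone, 0.0473 by DESeq2, 0.0283 with counts divided by 4).

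Trib3, a pseudokinase that ATF4 and CHOP induce and that in turn dampens both, fell with CIT in both guides. Its levels were 8.34, 10.4 and 9.74 CPM in sgCtr_no, 4.78, 4.73 and 4.61 in sgCtr_CIT, 8.05, 8.30 and 8.82 in sgNop16_no, and 5.34, 5.66 and 5.98 in sgNop16_CIT. As with Atf4, the unstimulated groups overlapped, and sgCtr_CIT lay lowest and apart from sgNop16_CIT. CIT lowered it to 0.495 of its unstimulated level in the control guide (log2 -1.02 ± 0.12, adjusted p = 4.06e-06) and to 0.675 in the Nop16 guide (-0.57 ± 0.12, adjusted p = 0.00136). The responses differed by 0.45 ± 0.17, which did not pass the adjustment (adjusted p = 0.238). The guide difference with CIT was 0.27 ± 0.12 (adjusted p = 0.268).

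Ppp1r15a encodes GADD34, which brings a phosphatase to eIF2α and so ends the stress signal. It was at 31.6, 36.7 and 30.9 CPM in sgCtr_no, 25.8, 26.4 and 24.4 in sgCtr_CIT, 30.8, 31.9 and 37.9 in sgNop16_no, and 27.4, 27.7 and 27.5 in sgNop16_CIT. Every stimulated library lay below every unstimulated one. The fall was -0.37 ± 0.08 in the control guide (adjusted p = 0.00191) and -0.29 ± 0.08 in the Nop16 guide (adjusted p = 0.0133). The call in the Nop16 guide was lost without sgNop16_no library 3, the highest of its group (adjusted p = 0.0708). No guide difference was called in either state (adjusted p = 0.956 and 0.599). Only 12 of its 2937 exon bases (0.409%) lie opposite an exon of Tulp2, which averaged under 1 CPM in each group.

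Chac1, an enzyme that breaks down glutathione, gave the largest called fall of the 9 genes in the control guide. It was at 9.06, 11.7 and 9.87 CPM in sgCtr_no and 5.92, 4.43 and 3.998 in sgCtr_CIT, a log2 difference of -1.10 ± 0.17 (adjusted p = 5.99e-05). In the Nop16 guide it was at 7.04, 7.75 and 6.76 CPM without CIT and 5.49, 6.50 and 4.57 with it. These groups did not overlap, but their difference of -0.38 ± 0.17 did not pass the test (adjusted p = 0.0981). It passed only without sgNop16_CIT library 2 (adjusted p = 0.0463). The difference between the responses, 0.72 ± 0.24, was the largest of the 9 genes and was not called (adjusted p = 0.154). Without CIT, all 3 libraries of the Nop16 guide lay below those of the control guide (-0.51 ± 0.17, adjusted p = 0.128).

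Ddit4 encodes REDD1, an inhibitor of the growth kinase mTORC1 that responds to ATF4, to low oxygen and to glucocorticoids. It was at 27.98, 31.6 and 31.0 CPM in sgCtr_no, 48.2, 47.8 and 46.2 in sgCtr_CIT, 23.4, 26.3 and 29.1 in sgNop16_no, and 35.6, 33.7 and 32.7 in sgNop16_CIT. It was highest in sgCtr_CIT, where Atf4, Trib3 and Chac1 were lowest. CIT raised it by 0.65 ± 0.08 in the control guide (adjusted p = 2.7e-06) and by 0.37 ± 0.08 in the Nop16 guide (adjusted p = 0.000942). With CIT it was lower in the Nop16 guide by a log2 difference of -0.48 ± 0.07 (adjusted p = 0.00102), and these calls held without any 1 library. The responses differed by -0.28 ± 0.11, which was not called (adjusted p = 0.244), and neither was the guide difference without CIT (-0.20 ± 0.08, adjusted p = 0.2).

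Cth encodes cystathionine γ-lyase, which makes cysteine in the transsulfuration pathway. It was at 25.2, 29.6 and 27.96 CPM in sgCtr_no and 27.1, 26.6 and 25.4 in sgCtr_CIT, and these groups overlapped. In the Nop16 guide it was at 23.9, 22.0 and 23.7 CPM without CIT and 32.1, 34.7 and 30.3 with it. The Nop16 guide thus held both the lowest and the highest group. The CIT response was -0.07 ± 0.08 in the control guide (adjusted p = 0.552) and 0.48 ± 0.08 in the Nop16 guide (adjusted p = 9.42e-05). The difference between them was 0.55 ± 0.11 (adjusted p = 0.0148) and was called in all 12 fits that left out 1 library (adjusted p up to 0.0484). The guide difference was -0.25 ± 0.08 without CIT (adjusted p = 0.0979) and 0.30 ± 0.08 with it (adjusted p = 0.0301). The call with CIT stayed only when sgNop16_CIT library 3 was left out and was lost without any other of the 6 libraries (adjusted p up to 0.147).

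**Figure D3:**
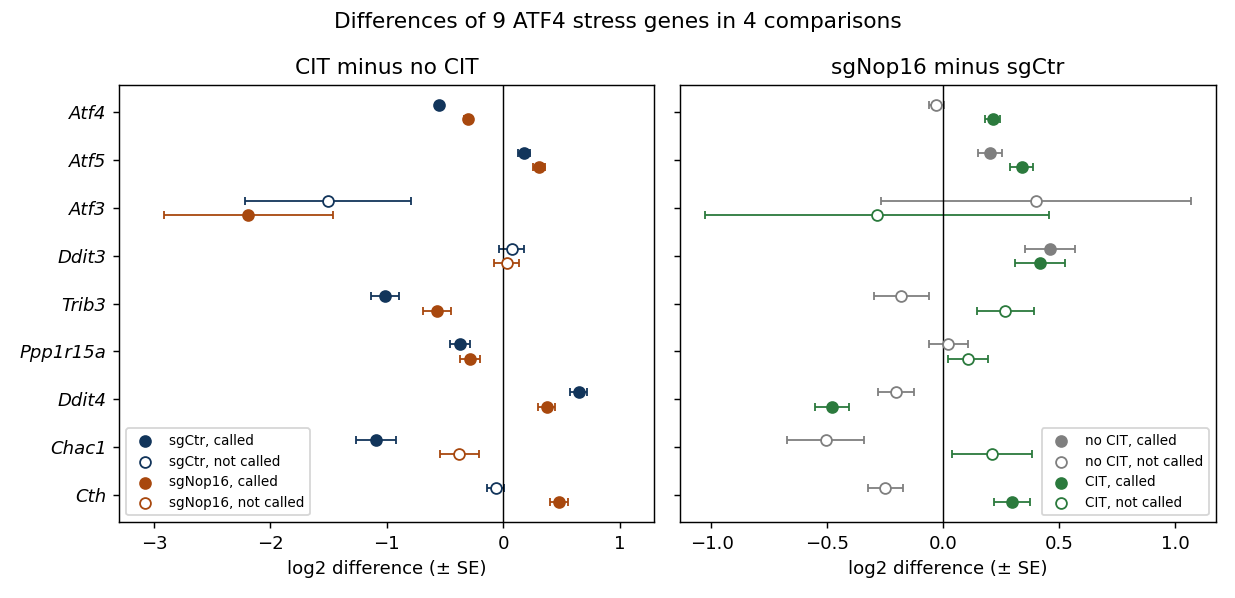
Log2 differences with SE for the 9 tested genes, on the left between CIT and no CIT for each guide and on the right between the guides for each state; filled points passed an adjusted p of 0.05. Atf4 and Trib3 lie left of 0 with CIT in both guides, Ddit4 lies right of 0, and Cth is called in the Nop16 guide, at 0.48.

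By group means, Atf4, Trib3 and Chac1 shared 1 order: sgCtr_no, sgNop16_no, sgNop16_CIT and sgCtr_CIT from highest to lowest. The first 2 groups overlapped for Atf4 and Trib3 and the last 2 for Chac1. Atf5 and Ddit3 shared another order, with sgNop16_CIT first, then sgNop16_no, sgCtr_CIT and sgCtr_no. For Atf5 the middle groups overlapped, and for Ddit3 the 2 groups of each guide did. Across the 12 libraries, the gene whose log2 level was most like that of Atf4 among 10287 genes with a mean of at least 5 CPM was Cct6a, a subunit of the chaperonin that folds actin and tubulin (Pearson r = 0.995). Trib3 was most like Eif3b, a translation initiation subunit (r = 0.987), and Ddit4 most like Snd1 (r = 0.983). Chac1 was most like Foxk2 (r = 0.976), Atf5 like Zfp318 (r = 0.962), Atf3 like Adam15 (r = 0.960) and Ppp1r15a like Runx1 (r = 0.946). The gene most like Ddit3 has no symbol in the tables used (r = 0.936). These values describe 12 libraries in 4 groups, which share their groups' shifts and depths.

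The genes that ATF4 is known to induce for amino acid supply fell with CIT nearly as a block. All 13 tRNA charging and export genes (12 synthetases and the exporter Xpot) were lower with CIT in both guides, with list medians of -0.48 in the control guide and -0.28 in the Nop16 guide. Cars, the cysteinyl-tRNA synthetase, fell by 0.67 on the log2 scale in the control guide, and Nars, for asparagine, by 0.57. Of 12 tested genes for amino acid and one-carbon synthesis, 9 fell in the control guide and 8 in the Nop16 guide. None rose by edgeR or DESeq2, and 0 did at an unadjusted p below 0.05. Among them were Got1, an aspartate aminotransferase (-0.88 ± 0.04 and -0.72 ± 0.04), and Psph, the last step to serine (-0.78 ± 0.06 and -0.64 ± 0.06). Of 9 tested amino acid transporters, 7 fell in the control guide and 6 in the Nop16 guide. They included the arginine and lysine carrier Slc7a1 (-0.92 ± 0.04 and -0.72 ± 0.04), while the glutamine carrier Slc38a2 rose (0.21 ± 0.03 and 0.13 ± 0.03). These counts are read against 20.9% and 18.2% of all tested genes called lower. The share was larger among well expressed genes: in the fit of the 10571 genes with at least 5 CPM in 3 libraries, 3193 and 2827 were called lower.

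Other ATF4 targets, those for signalling and cell death, did not move as a block. The counts of the next 5 lists are read against 20.4% of all tested genes called higher and 20.9% lower in the control guide, and 18.9% and 18.2% in the Nop16 guide. These shares were larger in the fit of the 10571 genes with at least 5 CPM in 3 libraries. There 3106 were called higher and 3193 lower in the control guide, and 2891 and 2827 in the Nop16 guide. Of 14 tested signalling and cell death targets, 5 rose and 4 fell with CIT in the control guide, and 7 rose and 2 fell in the Nop16 guide. The death gene Bcl2l11 (BIM) rose from 39.2 ± 2.60 to 121 ± 2.35 CPM in the control guide, by 1.63 ± 0.06, and the translation brake Eif4ebp1 fell from 25.8 ± 1.20 to 11.4 ± 0.352 CPM (adjusted p = 6.08e-08). Among the 8 genes around eIF2α, the kinase of the endoplasmic reticulum Eif2ak3 (PERK) rose from 40.1 ± 0.688 to 83.6 ± 1.54 CPM in the control guide, by 1.06 ± 0.05. The amino acid sensing kinase Eif2ak4 (GCN2) fell there from 102 ± 2.91 to 59.4 ± 3.05 CPM, by 0.77 on the log2 scale. In all, 2 of the 8 rose and 3 fell in the control guide and 1 rose and 4 fell in the Nop16 guide, and the 2 that rose are near the background. Of 13 tested bZIP partners and C/EBP factors, 1 rose and 3 fell in the control guide and 2 rose and 3 fell in the Nop16 guide, so the falls are near the background. Batf3, a partner of Jun proteins in lymphoid cells, fell by 1.26 on the log2 scale in the control guide. The ATF6 and XBP1 arms of the unfolded protein response split, with 7 of 22 higher and 10 lower in the control guide and 9 higher and 5 lower in the Nop16 guide. Of 20 genes of mTORC1 signalling, 8 rose and 5 fell in the control guide and 8 rose and 4 fell in the Nop16 guide, and the falls are again near the background. Castor1, an arginine sensor, rose by 3.10 ± 0.24 in the control guide from a low level.

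Between the guides, some of the amino acid supply genes were higher in the Nop16 guide with CIT, and a few were lower in it without CIT. With CIT, 7 of 13 tRNA genes, 5 of 9 transporters and 3 of 12 synthesis genes were higher in sgNop16_CIT than in sgCtr_CIT and none was lower, against 3.39% and 2.77% of all tested genes. At an unadjusted p below 0.05, 1 transporter and 1 synthesis gene were lower, and DESeq2, or edgeR with library totals, called 1 transporter lower. Without CIT neither edgeR nor DESeq2 called any of these genes higher (1 transporter at an unadjusted p below 0.05), and edgeR called 2 tRNA genes and 3 synthesis genes lower, against 1.53% of all tested genes. Those counts were 1 to 2 and 0 to 3 when 1 library at a time was left out. When 1 library at a time was left out, the counts with CIT ranged over 2 to 6, 2 to 3 and 0 to 2. The shares called between the guides were larger among well expressed genes. In the fit of the 10571 genes with at least 5 CPM in 3 libraries, 665 were higher and 578 lower with CIT. Without CIT, 377 were higher and 306 lower in that fit. Slc3a2, the partner chain of several amino acid carriers, was at 131 ± 4.71 CPM in sgCtr_CIT and 161 ± 3.20 in sgNop16_CIT (0.30 ± 0.04, adjusted p = 0.000146), called without any 1 library. Wars, the tryptophanyl-tRNA synthetase, was higher by 0.21 ± 0.04 (adjusted p = 0.00287) and was also called each time. Sesn2, a leucine sensor that restrains mTORC1, was at 48.6 ± 1.75 and 69.2 ± 2.97 CPM (0.51 ± 0.07, adjusted p = 0.000561). It was the one gene of the mTORC1 list called between the guides with CIT by edgeR. Without CIT edgeR and DESeq2 called 0 genes of that list, with 2 higher and 2 lower at an unadjusted p below 0.05. Of the other lists with CIT, 6 of 22 genes of the ATF6 and XBP1 arms were higher and 2 lower, 1 of the 8 genes around eIF2α was higher and 1 lower, 1 of 13 bZIP genes was higher, and of the 14 signalling genes 1 was higher and 2 lower. Without CIT, 3 of 22 genes of the ATF6 and XBP1 arms were lower, 1 of 8 around eIF2α was lower (Eif2ak4, -0.20 ± 0.04, called in 3 of the 6 fits that left out 1 library), 1 of 14 signalling genes was higher (Bcl2l11, 0.33 ± 0.06), and no bZIP gene was called by edgeR or DESeq2, with 1 higher and 1 lower at an unadjusted p below 0.05.

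The CIT response was more positive, by the interaction term, for 6 of 13 tRNA genes, 2 of 9 transporters, 3 of 12 synthesis genes and 8 of 22 genes of the ATF6 and XBP1 arms, against 0.881% of all tested genes. It was more negative for none of them, by edgeR, by DESeq2 or at an unadjusted p below 0.05, against 1.25%. Leaving out 1 library at a time moved these counts to between 2 and 6, 0 and 2, 2 and 3, and 1 and 5. Well expressed genes were called more often here too. In the fit of the 10571 genes with at least 5 CPM in 3 libraries, 175 responses were more positive and 291 more negative. Cars fell by 0.67 on the log2 scale with the control guide and from 78.4 ± 1.80 to 63.1 ± 1.28 CPM with the Nop16 guide, a difference in response of 0.35 ± 0.06 (adjusted p = 0.00577). Hyou1, a chaperone of the endoplasmic reticulum, was at 225 ± 3.13 and 178 ± 2.16 CPM without and with CIT in the control guide and at 209 ± 4.58 and 217 ± 4.11 in the Nop16 guide, a difference in response of 0.39 ± 0.04 (adjusted p = 9.46e-05). Both were called without any 1 library. Of the 14 signalling genes 2 had a more positive response, Sesn2 and Herpud1, and 2 a more negative one, Bcl2l11 and Klhl24. Of the mTORC1 list 1 gene, Sesn2 again, was called, and of the bZIP list and the genes around eIF2α none was, with 2 and 3 past an unadjusted p of 0.05 and 0 and 1 by DESeq2. The median difference in response was 0.18 for the tRNA genes, 0.20 for the transporters and 0.17 for the synthesis genes, against 0.01 over all tested genes.

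**Figure D4:**
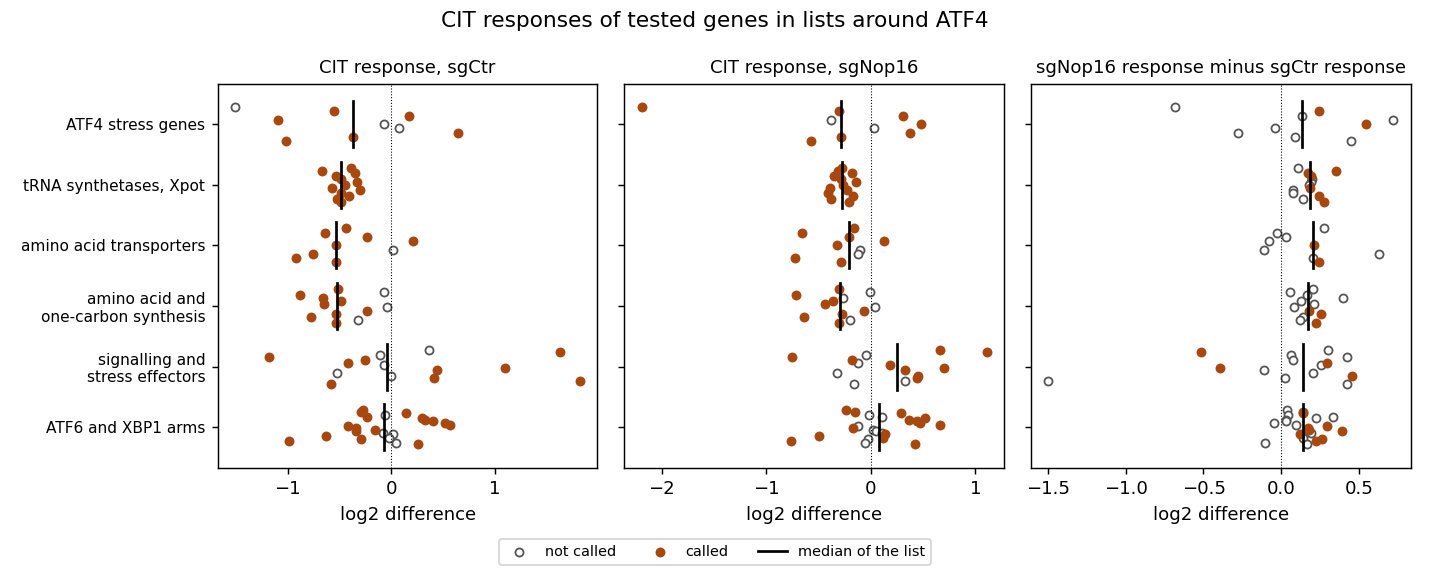
Log2 differences of the tested genes (points; filled where called) in the 10-gene set and in 5 lists of related genes, with the list median as a bar, for the CIT response in each guide and for the difference between the responses. All 13 tRNA genes lie left of 0 in both guides, with medians of -0.48 and -0.28, and their differences in response have a median of 0.18.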

How the data were processed

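Total RNA of 12 libraries was prepared with a directional kit, per the labels' protocols. The submitters' processing notes name HISAT2 2.2.1, StringTie 2.2.1 and the GRCm39 build, with no roles. The authors deposited estimated counts per gene for each library. The deposited values are whole numbers, and low values pile up at 4 (8845 values, against 7532 at 3 and 4025 at 5), so 1 fragment was taken as about 4 counts for detection limits. Ensembl IDs were given symbols from a name table for 51948 of 56941 IDs; those with no symbol took up to 0.365% of the counts.

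Counts were tested as deposited in edgeR 4.0.16 (R 4.3.3) with filterByExpr, TMM factors (0.985 to 1.01), a model of the 4 group means over all 12 libraries, and quasi-likelihood tests of 5 contrasts: the CIT response in each guide, sgNop16 against sgCtr in each state, and the interaction. Fits were checked on simulated data. P-values were adjusted by Benjamini and Hochberg over 16794 genes, and those with an adjusted p below 0.05 were called. An SE is the log2 difference divided by the square root of F. Library totals were 38866418 to 48615177 counts. Exon lengths and overlaps come from GENCODE M21 (GRCm38), and no coordinates were carried between builds.

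The 10 genes and all lists were chosen with earlier results of these data known. The text names all 10 genes, Nop16, up to 2 called genes in each direction per list and comparison with the largest differences, and the most alike gene of each tested one, except that of Cth, which is not reported here. Genes named outside that rule are descriptions: Mars, Nup62, Il4i1 and Tulp2 by overlap, Xpot as a list member, Lyz2, Fcgr1, Mertk and Cd14 as markers at 0, and Lck after its values were seen. The genes Sesn2, Eif4ebp1, Herpud1, Cebpg and Jdp2 are in 2 lists each and count in both. The main model did not pair libraries by replicate number. Deviations from the group means correlated at -0.202 to 0.158 between libraries of the same number. Libraries of different numbers were not compared in this way, so these values cannot decide whether the numbers mark pairs. The replicates are called biological, but no source used here says that they were separate cultures, so p-values measure the spread between these libraries. Alternatives were RLE factors, library totals, no filter, at least 5 CPM in 3 libraries, a replicate block, the compared groups alone, DESeq2 1.42.0, counts divided by 4, leaving out each library and, chosen after seeing the data, a robust fit.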

Additional observations from a re-analysis of the deposited data

Results flagged for a closer look

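The CIT response differed between the guides by the interaction term for Atf4 (0.24 on the log2 scale) and Cth (0.55). Both calls held in all 12 fits that left out 1 library, with a highest adjusted p of 0.0458 and 0.0484, close to the threshold. The same test called 22 genes of the related lists. Over all tested genes it called 0.881% with a more positive and 1.25% with a more negative response. The 11 list genes named here are up to 2 in each direction per list with the largest differences. Of these, 9 had a more positive response in the Nop16 guide: Hyou1 (0.39), Cars (0.35), Yars (0.27), Shmt2 (0.22), Slc7a5 (0.24), Psat1 (0.26), Herpud1 (0.29), Sesn2 (0.45) and Slc3a2 (0.21). Among all 22, only Bcl2l11 (-0.52) and Klhl24 (-0.39) had a more negative response.

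Hyou1, Cars, Yars, Shmt2, Bcl2l11 and Klhl24 were called in all 12 fits that left out 1 library. Slc7a5 was called in 8 of the 12, Psat1 in 4, Herpud1 and Sesn2 in 2 each, and Slc3a2 in 1. For the last 4, the highest adjusted p in such a fit was 0.0783 (Psat1), 0.119 (Herpud1), 0.102 (Sesn2) and 0.139 (Slc3a2). No group held enough libraries for a test of single outlying libraries.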

How the results depend on the processing

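Of 715 repeats of single gene values, 677 kept their call or lack of a call, 33 lost a call and 5 gained 1. Among values called in either fit, 0 reversed direction. Values called in neither fit were counted as kept even where their sign changed. The guide difference of Atf3 with CIT, -0.29, ran from -0.82 to 0.29 when 1 library at a time was left out. The replicate block left 1 gene higher between the guides without CIT, where the reported count is 2 (Atf5 was lost, adjusted p = 0.0704), and changed no other call among the 10 genes; no filter on low counts also left 1 and the compared groups alone 0. There DESeq2 called 1 lower where edgeR called 0. Leaving out 1 library gave counts of 0 to 1 there, 2 to 3 higher between the guides with CIT, and 1 to 2 higher with CIT in the control guide.

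With library totals, some list counts between the guides and for the interaction moved. Between the guides, 0 bZIP genes were higher with CIT, and 1 synthesis gene was lower without CIT and 1 higher with it. Also between the guides, 1 transporter and 1 mTORC1 gene were lower with CIT. By the interaction term, 1 gene around eIF2α had a more negative response, and 1 transporter and 1 signalling gene a more positive one. With no filter, the counts between the guides were 0 bZIP genes higher with CIT, and 1 synthesis gene lower without CIT and 1 higher with it. A more positive response was then called for 1 transporter, 0 signalling genes, 4 genes of the ATF6 and XBP1 arms and 0 mTORC1 genes. With RLE factors 1 transporter had a more positive response.

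Over all genes, 301 were higher and 257 lower between the guides without CIT, against 514 and 413 by DESeq2 and 195 and 184 in the compared groups alone. With CIT 569 were higher and 465 lower, against 894 and 657 by DESeq2. For the interaction 148 and 210 were called, against 366 and 401 by DESeq2 and 83 and 124 with no filter. Library totals gave 362 and 189, 482 and 497, and 105 and 271 for these comparisons. The causes were not tested. Atf3 had at most 99 counts in a library, which limits its precision.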
